A study of Mus musculus with 12 samples.

Results

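DNA methyltransferases, TET dioxygenases and the enzymes that write or erase the Polycomb mark were followed by RNA-seq in MAFs, fibroblasts cultured from the ears of adult mice. The genes were taken by name: Dnmt1, Dnmt3a, Dnmt3b and the cofactor Uhrf1, the dioxygenases Tet1, Tet2 and Tet3, the H3K27 methyltransferases Ezh1 and Ezh2, and the H3K27 demethylase Kdm6b. These are 10 of the 49315 gene identifiers in the counts, and all 10 passed the filter on low counts that left 17416 genes for testing. Cells came from adult mice that were either wild type (WT, female C57BL6/J) or BMAL1 -/- (KO), which lack the circadian transcription factor BMAL1. Senescent cells had received 20 Gy of X-rays, a dose that stops division for good, and were kept in culture for weeks afterwards. Control cells had a sham exposure and are not the same cells before irradiation. Every group, controls included, was kept at 3% oxygen, given 100 nM dexamethasone for 2 h to align the circadian clock and collected 12 h later. Each of the 4 groups held 3 libraries. Neither the labels nor the methods state that these came from separate animals or cultures, so p-values measure the spread between the libraries, which may be technical.

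DNA methylation in mammals is copied after replication by DNMT1, which UHRF1 guides to newly made DNA, while DNMT3A and DNMT3B add methyl groups to unmethylated sites and the TET enzymes oxidise methylcytosine as a step towards its removal. Polycomb repressive complex PRC2 methylates histone H3 on lysine K27 through EZH2, the form of dividing cells, or EZH1, the form known from resting cells, and KDM6B removes that methyl mark. In fibroblasts PRC2 is best known for holding the INK4 locus silent, and Dnmt1, Uhrf1 and Ezh2 are known as genes of cycling cells.

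Total counts were 23923030 to 31736083 per library, at which 3 counts equal 0.0945 to 0.125 CPM, the unit of counts scaled to the library total. The lowest count of any of the 10 genes was 30, for Dnmt3b, so every value lay above that floor. Intervals and floors cover counting error and the spread of these libraries only, since no molecular identifiers were used. Arntl, the annotation's name for Bmal1, was at 29.8, 31.6 and 33.2 CPM in WT control libraries, 37.3, 35.8 and 35.2 in WT senescent, 15.2, 11.8 and 12.5 in KO control and 27, 25.3 and 27.4 in KO senescent libraries. It was thus lower in KO cells in both states without being absent, and counts over a whole gene do not show which part of it was deleted. The 8 fibroblast markers, Col1a1 and Vim among them, summed to 19891 to 20686 CPM in WT control, 9569 to 9955 in WT senescent, 24814 to 26172 in KO control and 11483 to 11880 in KO senescent libraries. These markers did not move together on senescence. By the test described below, 4 were higher and 4 lower in WT cells, and 2 and 5 in KO cells. In WT cells the log2 fold change was -2.06 for Col1a1 and 3.37 for Dcn. Chondrocyte markers were also present, with all 6 tested and summed levels of 6941 to 8591 CPM in WT control, 1837 to 2132 in WT senescent, 4534 to 6189 in KO control and 581 to 675 in KO senescent libraries. In bulk RNA, fewer cells of a type and less RNA per cell cannot be told apart, and the part of these marker genes in the results below was not tested. Skeletal muscle markers summed to 45.2 to 58.6 CPM in WT control, 13.5 to 15.0 in WT senescent, 23.1 to 33.6 in KO control and 14.3 to 23.1 CPM in KO senescent libraries, with Myod1 at 0 in both control groups. Most of that sum was the single gene Acta1, with means of 49.1, 13.7, 26.8 and 15.8 CPM in the same order. Des went the other way, with means of 0.321, 0.678, 0.798 and 2.18 CPM. The markers of keratinocytes, macrophages, endothelium and melanocytes each summed to at most 19.2 CPM in any library. WT and KO cells came from different mice, and their counts were deposited as separate tables. The labels name no batch. Differences of animal or handling therefore cannot be told apart from genotype where KO is set against WT.

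In WT cells, 7 of the 10 genes fell on senescence, 1 rose and 2 did not pass the test. In KO cells 9 fell and 1 rose. A gene passed where its adjusted p in edgeR's quasi-likelihood test was under 0.05. Among all genes tested, 27% passed as lower and 29.2% as higher in WT cells, and 28.6% and 28.5% in KO cells. With a log2 fold change over 1 in size also required, 3 of the 10 genes were lower in WT cells, against 5.90% of all genes, and 5 of the 10 in KO cells, against 7.58%. None of the 10 was higher by that rule, which 11.6% of all genes met in WT and 11.2% in KO cells. The median log2 fold change of the 10 was -0.79 in WT and -1.09 in KO cells, beside 0.02 and 0.00 over all genes tested.

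**Figure D1:**
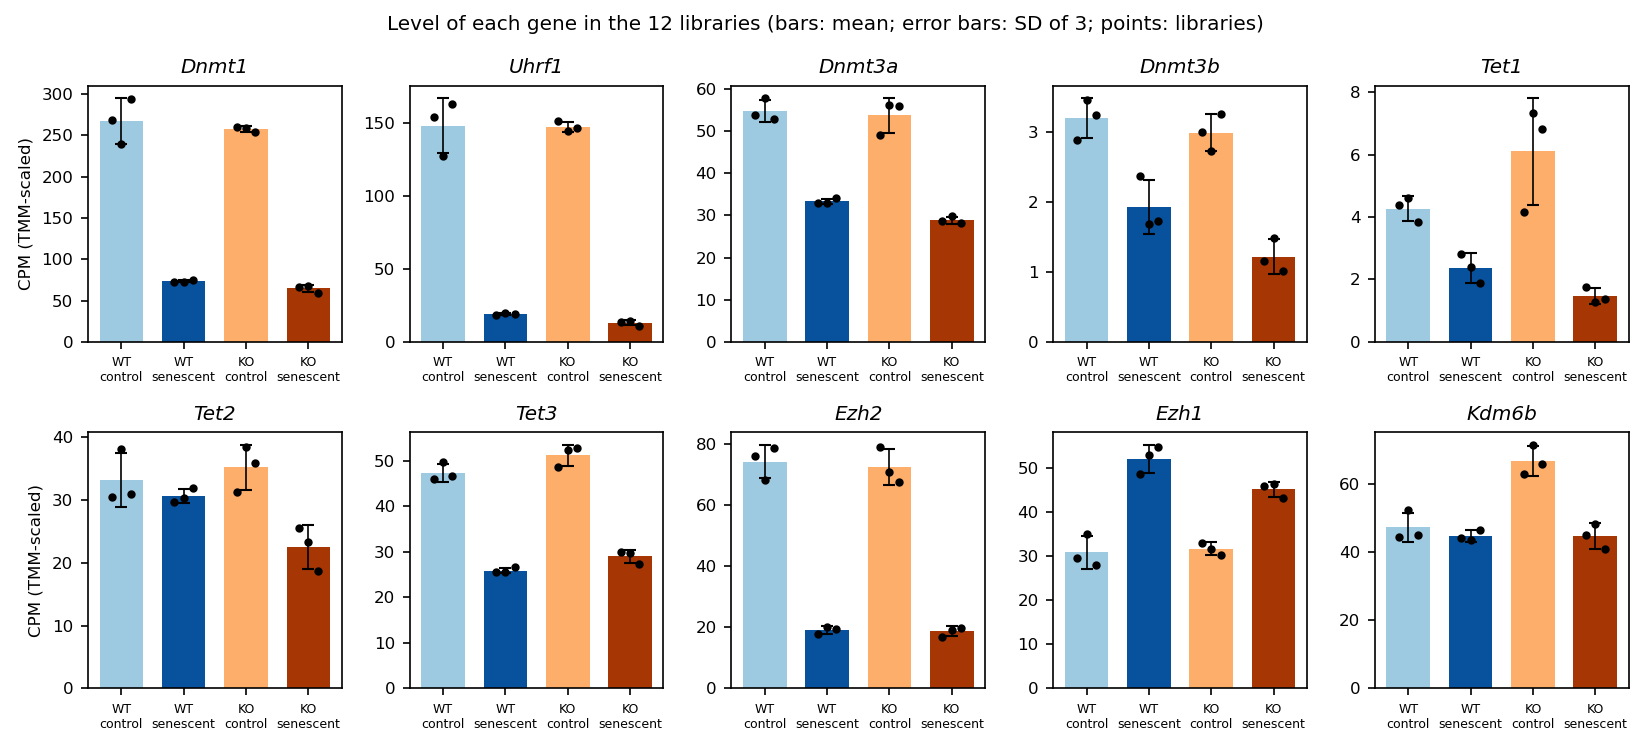
Level of each gene in CPM, with library totals scaled by TMM factors, on linear axes that start at 0. Bars are means of 3 libraries, error bars their SD and points the libraries of each of the 4 groups. Dnmt1, Uhrf1 and Ezh2 dropped in both genotypes, Ezh1 rose in both, and Kdm6b was highest in KO control cells.

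Reference promoter sequence, 250 bases before to 50 after each transcription start, was read from RefSeq (GRCm38.p6) to show the regulatory DNA of the 3 genes that fell most in WT cells and of the 1 that rose. Of the 10 genes, 9 were in that table, with 14 starts, and Kdm6b was not. Windows of 100 bases are printed 5′ to 3′ on the gene's strand, with an E2F-type word in capitals where one was found. The words searched on both strands were TTTCCCGC, TTTCGCGC, TTTGCCGC and TTTGGCGC, and 2.26% of 32851 promoters of the same length held at least 1 of them. E2F factors are the regulators of S-phase genes. The windows are Dnmt1 (chr9:20952774-20952873, minus strand, -250 to -151 from its most downstream start), Uhrf1 (chr17:56304082-56304181, plus strand, -231 to -132 from its downstream start), Ezh2 (chr6:47595016-47595115, minus strand, -85 to 15) and, as the gene that rose, Ezh1 (chr11:101226464-101226563, minus strand, -100 to -1).
Dnmt1: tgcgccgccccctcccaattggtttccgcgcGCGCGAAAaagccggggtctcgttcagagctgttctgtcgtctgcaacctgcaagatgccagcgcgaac
Uhrf1: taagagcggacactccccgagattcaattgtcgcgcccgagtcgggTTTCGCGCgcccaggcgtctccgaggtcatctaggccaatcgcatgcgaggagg
Ezh2: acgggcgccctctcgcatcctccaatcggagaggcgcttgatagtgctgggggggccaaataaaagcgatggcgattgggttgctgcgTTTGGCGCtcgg
Ezh1: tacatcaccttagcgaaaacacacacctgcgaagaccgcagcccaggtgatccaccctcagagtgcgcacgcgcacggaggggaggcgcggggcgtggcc
A match was found at 3 of the 14 starts, 1 each of Dnmt1, Uhrf1 and Ezh2, and not at the other starts of Dnmt1 and Uhrf1 or at that of Tet1, which fell by 2.05 on the log2 scale in KO cells. In Dnmt1 the word began at -219, with another after the start, in Uhrf1 it began at -185 and in Ezh2 at 4, counted from 1 at the transcription start. The Ezh1 window shows a promoter without one. The AP-1 words TGACTCA and TGAGTCA, held by 5.2% of all promoters, were in none of the 14, and the E-box CACGTG, the word that BMAL1 and its partner CLOCK bind, held by 7.15%, was in 1, at a Dnmt3a start. Sequence outside these stretches was not searched, nor was Kdm6b. By ChIP-seq, the study listed Kdm6b among genes with more BMAL1 binding in senescent cells. Each E2F word contains CG, and the matched starts of Dnmt1, Uhrf1 and Ezh2 held 33, 33 and 31 CG pairs. The median over all promoters was 7, so the share of all promoters with an E2F word is not one of promoters alike in CG content. A match is a description of letters and not a binding site, and a missing word says nothing of the factor.

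Dnmt1 (ENSMUSG00000004099, GRCm38 chromosome 9, 20907209 to 20959888, minus strand), the maintenance methyltransferase, was at 269, 239 and 294 CPM in WT control libraries and at 72.5, 72.6 and 75.0 CPM in WT senescent libraries. In KO cells it was at 260, 259 and 254 CPM in control and 66.6, 67.7 and 59.3 CPM in senescent libraries. All control libraries lay above all senescent libraries, and the control groups overlapped. The fall was 3.65-fold in WT cells (log2 fold change -1.87, SE 0.07, adjusted p = 2.86e-15) and 3.99-fold in KO cells (log2 fold change -2.00, SE 0.07, adjusted p = 8.23e-16). The difference between these falls, the interaction, was -0.13 on the log2 scale and did not pass the test (adjusted p = 0.356).

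Uhrf1 (ENSMUSG00000001228, chromosome 17, 56303321 to 56323486, plus strand), which brings DNMT1 to hemimethylated DNA, fell the most of the 10. It was at 154, 127 and 163 CPM in the control libraries of WT cells and 18.4, 20.0 and 18.7 CPM in WT senescent ones, a 7.75-fold fall (log2 fold change -2.95, SE 0.09, adjusted p = 7.97e-14). KO libraries held 151, 144 and 146 CPM in control and 13.8, 14.1 and 11.1 CPM in senescent cells. That was an 11.3-fold fall (log2 fold change -3.50, SE 0.10, adjusted p = 1.27e-14). The KO fall exceeded the WT fall by 0.55 on the log2 scale, with an interaction of -0.55 (SE 0.13, adjusted p = 0.0075). Control levels overlapped between the genotypes (difference -0.01, 95% interval -0.18 to 0.17), whereas every KO senescent library lay below every WT senescent library.

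Uhrf1 was therefore reduced more than Dnmt1 in senescent cells, while control cells carried similar amounts of both per kb of exon. In CPM they differed, with WT control means of 268 for Dnmt1 and 148 for Uhrf1. Exon length here merges all annotated exons of a gene, and which transcripts the cells used was not examined. Per kb of exon, the ratio of Uhrf1 to Dnmt1 was 0.987, 0.917 and 0.959 in WT control and 1.01, 0.963 and 0.993 in KO control libraries. It was 0.439, 0.478 and 0.433 in WT senescent and 0.358, 0.362 and 0.323 in KO senescent libraries. The senescent ratios lay below all control ratios, and those of KO below those of WT senescent cells.

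S-phase genes moved with these values. A reference list held 15 genes, such as the replicative helicase subunits Mcm2 to Mcm7 and the proliferation marker Mki67. All 15 fell in both genotypes, beside 27% of all genes in WT and 28.6% in KO cells. Their median log2 fold changes were -2.10 in WT and -2.27 in KO cells. Their summed level was 1932 to 2457 CPM in WT control, 404 to 424 in WT senescent, 2036 to 2125 in KO control and 336 to 348 in KO senescent libraries. Of the 15, 9 were lower in senescent KO cells than in their WT counterparts, beside 11.8% of all genes. Mki67 was among them, with means of 26.4 CPM in KO senescent and 45.6 CPM in WT senescent cells. Relative to the summed level of these genes, Uhrf1 was at 6.56% to 6.78% in WT control, 4.45% to 4.73% in WT senescent, 7.06% to 7.12% in KO control and 3.30% to 4.13% in KO senescent libraries. Dnmt1 went the other way, from 11.9% to 12.4% in WT control to 17.1% to 18.0% in WT senescent libraries, and from 12.2% to 12.7% to 17.7% to 19.8% in KO cells. Within the list, Cdc6 (log2 fold change -3.17 in WT, -3.50 in KO) and Mki67 (-3.70 and -4.46) fell as far as Uhrf1 or further. The rest of the list fell less. The interaction passed for Mcm5 (-0.37, edgeR adjusted p = 0.0152) and Mcm6 (-0.42, adjusted p = 0.00476), with the same sign as that of Uhrf1. In it, 11.7% of all genes passed as lower. The part of proliferation in the differences between genotypes was not tested.

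Dnmt3a (ENSMUSG00000020661, chromosome 12, 3806007 to 3914443, plus strand), a de novo methyltransferase, fell less than Dnmt1. It had 53.8, 57.8 and 52.9 CPM in WT control and 32.9, 33.0 and 34.1 CPM in WT senescent libraries. KO values were 49.0, 56.2 and 55.9 CPM in control and 28.7, 29.8 and 28.1 CPM in senescent libraries. Control and senescent libraries did not overlap in either genotype, and the log2 fold changes were -0.72 (SE 0.06, adjusted p = 5.62e-09) in WT and -0.90 (SE 0.07, adjusted p = 1.79e-10) in KO cells. The interaction was -0.18 (adjusted p = 0.189). Of the 16642 bases of its exons, 133 overlap the antisense gene Dnmt3aos.

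Dnmt3b (ENSMUSG00000027478, chromosome 2, 153649450 to 153687730, plus strand), the de novo enzyme of early embryos, was scarce. Its libraries were at 2.89, 3.46 and 3.25 CPM in WT control, 2.38, 1.68 and 1.73 in WT senescent, 3.00, 2.73 and 3.26 in KO control and 1.16, 1.49 and 1.01 CPM in KO senescent cells. The log2 fold change was -0.72 in WT cells (SE 0.22, adjusted p = 0.00793). KO cells gave -1.29 (SE 0.23, adjusted p = 6.08e-05). The interaction of -0.57 carried an SE of 0.32 and did not pass (adjusted p = 0.228).

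Together the methyltransferases took a smaller part of the counts in senescent cells. The share of the de novo enzymes among them rose, since Dnmt1 fell more than they did. Summed per kb of exon, the 3 Dnmt genes were at 40.2 ± 3.56 CPM per kb in WT control and 12.3 ± 0.204 in WT senescent cells (SD, n = 3), and at 38.7 ± 0.275 and 10.7 ± 0.699 CPM per kb in KO cells. Dnmt1 made up 90.2% ± 1.36 of that sum in WT control and 80.7% ± 0.501 in WT senescent cells, and 90.1% ± 0.667 and 81.6% ± 0.635 in KO cells. The share of Dnmt3a was 8.26% in WT control and 16.2% in WT senescent cells, although its own level fell.

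Tet3 (ENSMUSG00000034832, chromosome 6, 83362373 to 83459084, minus strand) was the most abundant dioxygenase in control cells. WT libraries held 46.0, 49.7 and 46.6 CPM in control and 25.5, 25.6 and 26.6 CPM in senescent cells. KO libraries held 48.6, 52.4 and 52.8 CPM in control and 30.0, 29.8 and 27.4 CPM in senescent cells. The falls were alike in size, -0.87 (SE 0.06, adjusted p = 2.18e-10) and -0.82 (SE 0.06, adjusted p = 4.35e-10) on the log2 scale, with an interaction of 0.05 (adjusted p = 0.734). KO senescent libraries lay above WT senescent libraries without overlap, but that difference of 0.17 did not pass (adjusted p = 0.0718).

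Tet2 (ENSMUSG00000040943, chromosome 3, 133463679 to 133545139, minus strand) behaved unlike Tet3 in WT cells. WT control libraries were at 30.5, 38.2 and 31.0 CPM and WT senescent libraries at 29.7, 30.4 and 31.9 CPM, which overlap (log2 fold change -0.12, 95% interval -0.35 to 0.11, adjusted p = 0.382). KO control libraries were at 31.3, 38.4 and 36.0 CPM and KO senescent libraries at 25.5, 23.3 and 18.7 CPM, which do not (log2 fold change -0.65, SE 0.11, adjusted p = 7.4e-05). The interaction was -0.54 (SE 0.15, adjusted p = 0.0208). It no longer passed when any 1 of WT control 1, WT control 3, WT senescent 3, KO control 2 or KO control 3 was left out, where the adjusted p reached 0.0584.

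Tet1 (ENSMUSG00000047146, chromosome 10, 62804570 to 62908996, minus strand), a TET gene best known from embryonic stem cells, was the scarcest of the 10 per kb of exon. Its libraries were at 4.38, 4.60 and 3.84 CPM in WT control, 2.82, 2.39 and 1.89 in WT senescent, 4.16, 7.34 and 6.82 in KO control and 1.77, 1.28 and 1.38 CPM in KO senescent cells. WT cells gave a log2 fold change of -0.85 (SE 0.22, adjusted p = 0.00278). That of KO cells was -2.05 (SE 0.23, adjusted p = 1.45e-07), a 4.14-fold fall. The interaction of -1.20 (SE 0.32, adjusted p = 0.0107) was the largest in size of the 10. KO control replicate 1 lay within the WT control libraries while replicates 2 and 3 lay above them, and the control difference of 0.52 did not pass (95% interval 0.08 to 0.95, adjusted p = 0.118). Without that replicate it was 0.73 (adjusted p = 0.0166).

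The makeup of the TET genes accordingly differed between senescent WT and KO cells. Per kb of exon, Tet3 was 55.9% and Tet2 38.6% of the TET sum in WT control cells, and 44.0% and 51.6% in WT senescent cells. In KO cells Tet3 was 55.4% of the sum in control and 55.1% in senescent cells, with Tet2 at 37.6% and 41.9%. The sum itself was 5.09 ± 0.390 CPM per kb in WT control and 3.52 ± 0.0726 in WT senescent cells, with KO values of 5.56 ± 0.454 and 3.17 ± 0.301 (SD, n = 3).

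**Figure D2:**
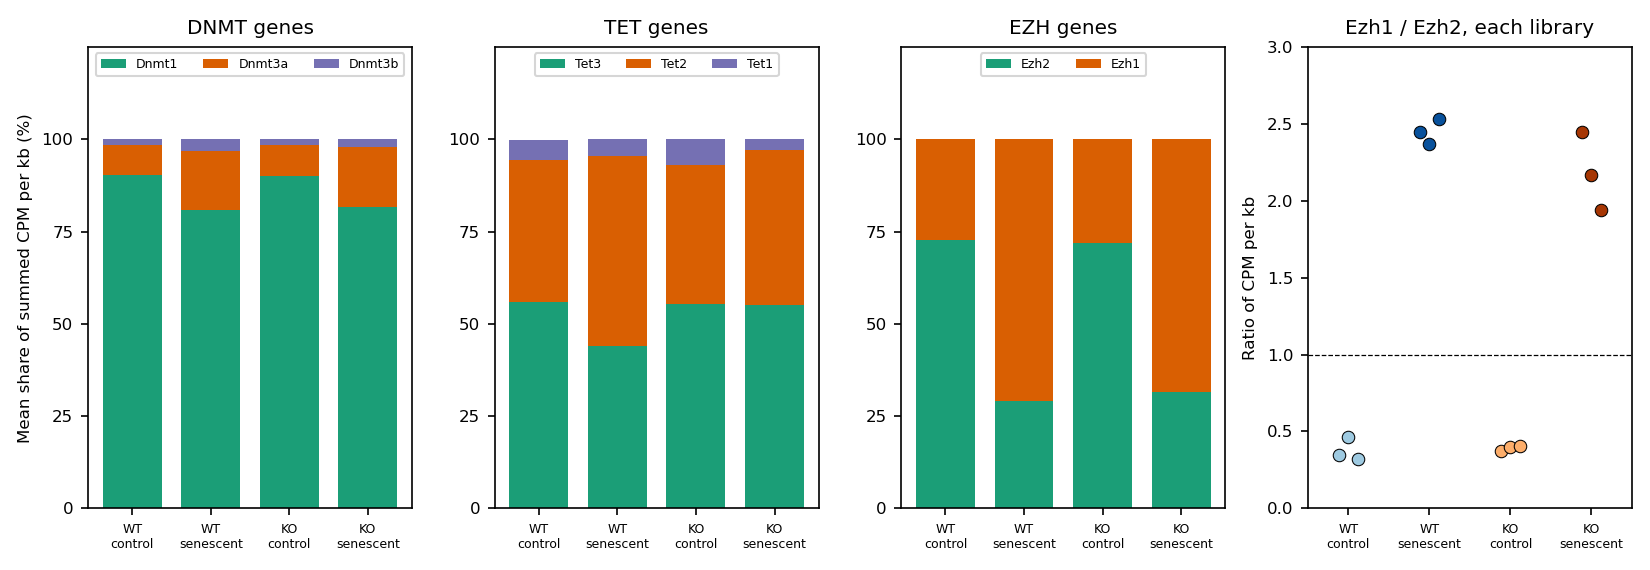
Share of each gene in the summed CPM per kb of its family (percent, mean of 3 libraries, stacked to 100) for the DNMT, TET and EZH genes in the 4 groups, and the ratio of Ezh1 to Ezh2 per kb in each library. Dnmt1 kept over 80% of its family, Tet2 overtook Tet3 in WT senescent cells, and the ratio of Ezh1 to Ezh2 went from 0.318 to 0.462 in control libraries to 1.94 to 2.53 in senescent libraries.

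Ezh2 (ENSMUSG00000029687, chromosome 6, 47530139 to 47595341, minus strand), the PRC2 methyltransferase of dividing cells, had 76.0, 68.1 and 78.7 CPM in WT control and 17.8, 20.1 and 19.5 CPM in WT senescent libraries. KO libraries were at 79.1, 70.9 and 67.4 CPM in control and 16.8, 19.2 and 19.9 CPM in senescent cells. Its levels overlapped between the genotypes in both states. The fall was 3.88-fold in each genotype, with a log2 fold change of -1.96 (SE 0.08) in both and adjusted p-values of 1.87e-14 in WT and 1.58e-14 in KO cells. The interaction was 0.00, with a 95% interval of -0.23 to 0.23 and an adjusted p of 0.995. Of the 6678 exon bases, 174 overlap the antisense gene Gm26625.

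Ezh1 (ENSMUSG00000006920, chromosome 11, 101191115 to 101226463, minus strand) was the single gene of the 10 that rose. It had 29.6, 35.1 and 27.9 CPM in WT control and 48.7, 52.9 and 54.9 CPM in WT senescent libraries, a 1.69-fold rise (log2 fold change 0.76, SE 0.08, adjusted p = 3.16e-08). In KO cells it was at 33.1, 31.7 and 30.2 CPM in control and 46.0, 46.3 and 43.2 CPM in senescent libraries. That was a 1.43-fold rise (log2 fold change 0.51, SE 0.08, adjusted p = 7.42e-06). No senescent library overlapped a control library. The interaction of -0.25 did not pass (SE 0.11, adjusted p = 0.117).

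The order of the pair was thereby turned round. Per kb of exon, the ratio of Ezh1 to Ezh2 was 0.349, 0.462 and 0.318 in WT control and 2.45, 2.37 and 2.53 in WT senescent libraries. In KO cells it was 0.375, 0.401 and 0.403 in control and 2.45, 2.17 and 1.94 in senescent libraries. Ezh1 made up 27.2% ± 3.92 of the pair in WT control and 71.0% ± 0.679 in WT senescent cells, and 28.2% ± 0.804 and 68.5% ± 2.52 in KO cells (SD, n = 3). Their sum was still smaller in senescent cells. It was 15.3 ± 0.326 CPM per kb in WT control and 9.88 ± 0.585 in WT senescent cells, and 15.1 ± 1.08 and 8.86 ± 0.212 in KO cells.

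Kdm6b (ENSMUSG00000018476, chromosome 11, 69398508 to 69413675, minus strand), the H3K27 demethylase, showed another pattern. WT libraries were at 44.5, 52.2 and 44.9 CPM in control and 44.0, 43.4 and 46.6 CPM in senescent cells, which overlap (log2 fold change -0.08, 95% interval -0.23 to 0.08, adjusted p = 0.383). KO libraries were at 62.8, 71.5 and 65.8 CPM in control and 45.1, 48.3 and 40.8 CPM in senescent cells. All 3 KO control libraries lay above the other 9, and the KO fall was 1.49-fold (log2 fold change -0.58, SE 0.07, adjusted p = 8.23e-07). The interaction was -0.50 (SE 0.10, adjusted p = 0.00197). Kdm6b shares 286 of its 6954 exon bases with the antisense gene Kdm6bos, and whether counting used strand is not given, so reads of the pair cannot be told apart there.

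The order of the genes changed with senescence. Per kb of exon, WT control cells held Dnmt1 at 36.3 and Uhrf1 at 34.7 CPM per kb, whose libraries overlapped, then Ezh2 at 11.1, Kdm6b at 6.79, Ezh1 at 4.15, Dnmt3a at 3.30, Tet3 at 2.84, Tet2 at 1.97, Dnmt3b at 0.627 and Tet1 at 0.276. In WT senescent cells Dnmt1 still led at 9.94 CPM per kb, but Ezh1 at 7.01 and Kdm6b at 6.43, which overlapped, stood above Uhrf1 at 4.47 and Ezh2 at 2.87. KO senescent cells had Dnmt1 at 8.75 CPM per kb, Kdm6b at 6.43 and Ezh1 at 6.07, again overlapping, then Uhrf1 at 3.05 and Ezh2 at 2.79, which overlapped as well.

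Comparing KO with WT directly, control cells differed in 1 of the 10 genes, which was higher, and none was lower by edgeR, by DESeq2 or at an unadjusted p under 0.05. Kdm6b was higher in KO control cells by 0.50 on the log2 scale (SE 0.07, adjusted p = 7.31e-05), while 8.07% of all genes passed as higher and 4.96% as lower in that comparison. Tet1 is given above. The other 8 genes differed by -0.10 to 0.11 on the log2 scale, with overlapping libraries and adjusted p-values of 0.263 to 0.964. The interval was widest for Dnmt3b, from -0.54 to 0.35.

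Among senescent cells, 7 of the 10 genes were lower in KO and none was higher, beside 11.8% and 11.9% of all genes. Uhrf1 differed by -0.56 (SE 0.10, adjusted p = 0.000803) and Tet2 by -0.45 (SE 0.11, adjusted p = 0.0064). Smaller or noisier differences passed for Dnmt1 (-0.19, adjusted p = 0.048), Dnmt3a (-0.21, adjusted p = 0.0269), Dnmt3b (-0.67, adjusted p = 0.0452), Tet1 (-0.69, adjusted p = 0.0445) and Ezh1 (-0.21, adjusted p = 0.0465). None reached a log2 fold change of 1 in size. Only Uhrf1 and Tet2 passed in all 12 alternative fits. The count of 7 became 3 without WT senescent replicate 1 or 3 or KO senescent replicate 1, and 2 without WT senescent replicate 2 or KO senescent replicate 3. Tet3 alone was higher at an unadjusted p under 0.05, and it passed with DESeq2 (0.19, adjusted p = 0.0368) and without KO senescent replicate 3 (0.21, adjusted p = 0.0453). Ezh2 (-0.04, adjusted p = 0.801) and Kdm6b (0.00, adjusted p = 0.997) overlapped between the genotypes.

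In the interaction, 4 of the 10 genes fell further in KO cells (Uhrf1, Tet1, Tet2 and Kdm6b) and none went the other way by edgeR, by DESeq2 or at an unadjusted p under 0.05, beside 11.7% of all genes with a lower and 9.24% with a higher KO change. This comparison uses the same 12 libraries as the ones above. For Kdm6b the control level was higher in KO cells and the senescent difference was 0.00. For Uhrf1, Tet1 and Tet2 the senescent levels were lower in KO cells, while the control differences of -0.01, 0.52 and 0.09 did not pass.

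**Figure D3:**
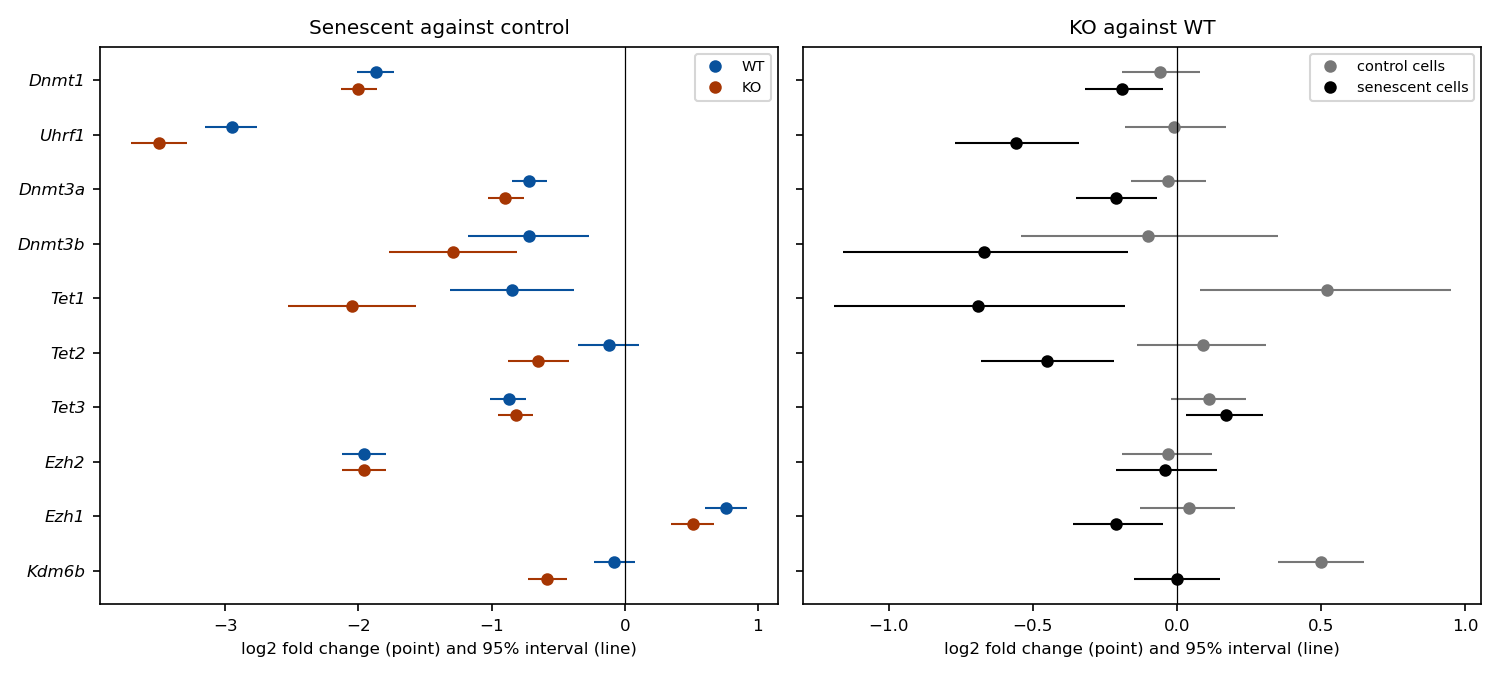
Log2 fold changes (points) with 95% intervals (lines) from edgeR's quasi-likelihood fit, for senescent against control cells in WT and KO (left) and for KO against WT in control and senescent cells (right). The WT and KO intervals lie apart for Uhrf1, Tet1, Tet2 and Kdm6b on the left, Ezh2 sits at -1.96 in both genotypes, and Kdm6b at 0.50 is the gene furthest from 0 in control cells beside Tet1 at 0.52.

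Partners and relatives of these enzymes were taken from lists. Of 8 genes listed as partners or relatives of the DNA methyltransferases and Uhrf1, 7 were tested and 6 fell in each genotype. Among all genes, 27% fell in WT and 28.6% in KO cells. The medians of the list were -0.59 in WT and -0.70 in KO cells. Hells, the chromatin remodeller needed for DNA methylation, was at 105 ± 14.6 CPM in WT control and 15.0 ± 1.26 in WT senescent cells, with KO levels of 91.9 ± 3.71 and 11.7 ± 1.63 (SD, n = 3). Its log2 fold changes were -2.80 (adjusted p = 4.95e-12) and -2.97 (adjusted p = 2.98e-12) in WT and KO cells. Cdca7, which recruits Hells, fell 5.66-fold (WT) and 4.21-fold (KO), with an interaction of 0.43 (adjusted p = 0.0312), the opposite sign to that of Uhrf1. Pcna, the sliding clamp that also binds DNMT1, fell by 1.81 (WT) and 1.76 (KO) on the log2 scale. The closest relative of Uhrf1, Uhrf2, fell less, by 0.59 and 0.70.

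Of 8 genes listed as readers of methylated DNA or relatives of such readers, 4 fell and 1 rose in WT cells. There, 27% of all genes fell and 29.2% rose. In KO cells 2 fell and 1 rose, beside 28.6% and 28.5% of all genes, and the medians were -0.09 and -0.04. Zbtb4 was the one that rose, by 0.95 in WT and 0.85 in KO cells on the log2 scale. Mbd4, a glycosylase of deaminated methyl-CpG, fell by 0.84 and 1.27.

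Of 11 demethylation partners, 5 fell and 2 rose in WT cells, beside 27% and 29.2% of all genes. In KO cells 6 fell and 1 rose, beside 28.6% and 28.5%, and the medians were -0.04 and -0.28. Gadd45a, a stress-induced gene linked to repair and demethylation, was at 16.8 ± 0.927 CPM in WT control and 54.1 ± 1.08 in WT senescent cells, with KO levels of 15.1 ± 0.798 and 59.0 ± 4.09 (SD, n = 3), and rose by 1.68 and 1.96 on the log2 scale. Tdg, the glycosylase that excises oxidised methylcytosine after TET, fell by 1.46 (WT) and 0.91 (KO), with an interaction of 0.54 (adjusted p = 0.00209), so it fell less where Tet1 and Tet2 fell more. Idh2, a mitochondrial source of the TET cosubstrate alpha-ketoglutarate, fell by 1.34 and 2.07, with an interaction of -0.72 (adjusted p = 2.5e-05).

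Among 11 further PRC2 subunits, 7 fell and 1 rose in each genotype. Of all genes, 27% fell and 29.2% rose in WT cells, and 28.6% and 28.5% in KO cells. The medians of the 11 were -0.38 in WT and -0.68 in KO cells, and no interaction passed. The core subunits differed from each other. Suz12 was at 99.9 ± 12.9 CPM in WT control and 50.8 ± 0.435 in WT senescent cells, with KO levels of 95.8 ± 6.25 and 52.1 ± 5.17 (SD, n = 3) and log2 fold changes of -0.97 (adjusted p = 3.04e-08) and -0.88 (adjusted p = 1.03e-07). Eed, which reads the mark that PRC2 makes, was at 50.8 ± 3.76 and 48.2 ± 0.317 CPM in WT and at 47.3 ± 0.519 and 46.5 ± 1.10 CPM in KO cells, with adjusted p-values of 0.294 and 0.744. The accessory subunit Phf19 fell by 2.16 in WT and 2.78 in KO cells, and its relative Mtf2 by 0.73 and 0.82, while Phf1, of the same subfamily, rose by 0.74 and 0.45.

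Of 22 subunits of the PRC1 complexes, 8 rose and 4 fell in WT cells and 7 rose and 6 fell in KO cells. The medians were 0.07 and -0.07. These counts lie near what the shares of all genes give (29.2% higher and 27% lower in WT, 28.5% and 28.6% in KO cells). Among the CBX subunits, which read the PRC2 mark, Cbx7 rose and Cbx2 fell. Cbx7 was at 4.64 ± 1.38 CPM in WT control and 11.9 ± 1.43 in WT senescent cells, with KO levels of 3.85 ± 1.23 and 7.86 ± 1.40. The same 4 levels of Cbx2 were 19.2 ± 2.99, 7.50 ± 0.484, 20.3 ± 1.95 and 6.90 ± 0.741 CPM (SD, n = 3). Log2 fold changes were 1.36 (adjusted p = 0.000171) and 1.02 (adjusted p = 0.00216) for Cbx7 and -1.36 (adjusted p = 3.71e-09) and -1.56 (adjusted p = 4.17e-10) for Cbx2. Cbx6 rose by 0.28 in WT and fell by 0.39 in KO cells, with an interaction of -0.67 (adjusted p = 3.3e-05).

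A list of PR-DUB subunits and other histone-modifying enzymes held 9 genes, such as Bap1, Asxl1, Kdm6a and Nsd2. Of these, 5 fell in WT and 7 in KO cells, beside 27% and 28.6% of all genes. None rose, beside 29.2% of all genes in WT and 28.5% in KO cells. The X-linked relative of Kdm6b, Kdm6a, had log2 fold changes of -0.20 (adjusted p = 0.0119) and -0.32 (adjusted p = 0.000181) and so fell in both. Nsd2, an H3K36 methyltransferase, fell by 1.92 and 1.64.

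INK4 and CIP inhibitors of the cell cycle, of which the INK4 genes are the ones best known as Polycomb-repressed, mostly rose. Cdkn2b was at 5.90 ± 1.61 CPM in WT control and 12.2 ± 0.945 in WT senescent cells, with KO levels of 8.67 ± 0.571 and 25.3 ± 1.82 (SD, n = 3). It rose by 1.06 (adjusted p = 1.23e-06) and 1.55 (adjusted p = 1.44e-09) on the log2 scale. Its neighbour Cdkn2a had 3.58, 2.52 and 4.24 CPM in WT control and 2.79, 3.77 and 3.01 CPM in WT senescent libraries, which overlap. In KO cells Cdkn2a went from 3.60, 4.74 and 3.43 CPM to 7.09, 8.64 and 12.5 CPM without overlap. The log2 fold changes were -0.11 (adjusted p = 0.723) in WT and 1.26 (adjusted p = 5.05e-05) in KO cells, with an interaction of 1.36 (adjusted p = 0.00473). Counts per gene do not separate the p16 and Arf transcripts of Cdkn2a. By qPCR, the study reported higher p16 expression in irradiated cells of both WT and KO, unlike the WT counts here. Cdkn1a rose by 1.92 and 1.63 on the log2 scale. Cdkn1c rose by 0.63 in WT and fell by 0.28 in KO cells. So 3 of the 4 rose in each genotype, beside 29.2% of all genes in WT and 28.5% in KO cells. The log2 fold change of Ezh2 was -1.96 in both genotypes, and a link between Ezh2 and any of these genes was not tested.

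**Figure D4:**
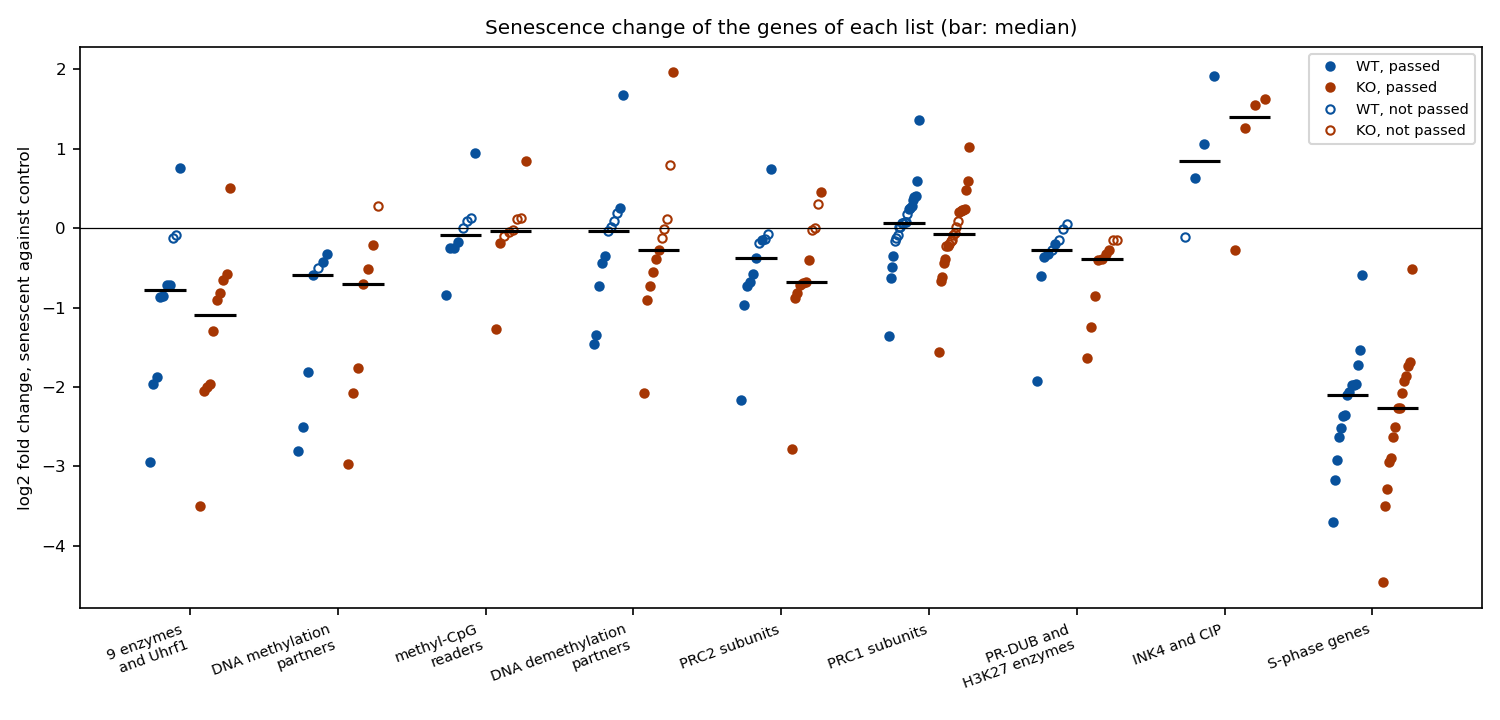
Log2 fold change of each gene of the lists on senescence, in WT and KO cells. Filled points passed the test, open points did not, and the bar is the median of the list. The median is lowest for the 15 S-phase genes and highest for the INK4 and CIP genes, and PRC1 subunits lie on both sides of 0.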

How the data were processed

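The authors deposited raw read counts, whole numbers for each gene in each library, as a table for each genotype. Per the study's methods, poly(A) libraries were sequenced as paired reads, base calls were converted with bcl2fastq 2.17, reads were trimmed with Trimmomatic 0.36 and mapped to GRCm38 with STAR 2.5.2b, and featureCounts assigned uniquely mapped reads to exons. Dropping reads that map to several places lowers the counts of genes with copies. The use of strand and the annotation release are not given in the sources used here. All 12 columns were placed by their names. Of 49315 identifiers, 48970 were matched to a symbol in GENCODE M21, which also gave coordinates and exon lengths.

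Genes were kept by filterByExpr over 4 groups, TMM factors (0.926 to 1.07) scaled the totals, and edgeR 4.0.16 (limma 3.58.1, R 4.3.3) fitted a robust quasi-likelihood model with 1 mean per group to all 12 libraries. Adjusted p-values are Benjamini-Hochberg over all 17416 genes tested, for 5 comparisons that share libraries. The SE is the log2 fold change divided by the square root of F. The fit was tested on simulated data with 200 changed genes. The study itself used DESeq2, which was run as an alternative (DESeq2 1.42.0). The other alternatives were DESeq2 size factors, library totals, no filter, only the groups compared, a replicate block, a threshold of 0.01 and leaving out each library. Replicate libraries correlated at 0.993 to 0.997 and none repeated another.

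The genes and lists were chosen with earlier results of these data known. From each list, up to 3 passed genes per direction were eligible to be named in the senescence comparisons and the interaction, by size of change among those averaging 1 CPM or more, and Cdkn2a, Cdkn2b, Kdm6a, Eed and Suz12 always. Uhrf2, outside that rule in part, was named as the relative of Uhrf1. Promoter sequences are from RefSeq, GRCm38.p6. Protein sequences were not analysed here.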

Additional observations from a re-analysis of the deposited data

Results flagged for a closer look

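In 4 of the 10 genes the senescence change differed between the genotypes by the interaction test of edgeR. The KO log2 fold change less the WT one was -0.55 for Uhrf1 (adjusted p = 0.0075), -1.20 for Tet1 (adjusted p = 0.0107), -0.54 for Tet2 (adjusted p = 0.0208) and -0.50 for Kdm6b (adjusted p = 0.00197). Uhrf1, Tet1 and Kdm6b passed in all 17 alternative fits and Tet2 in 12 of 17. Groups of 3 libraries are too small for a test of single outlying libraries.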

How the results depend on the processing

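Of 700 values of the 10 genes under alternatives, 619 kept direction and side of the threshold, 48 lost the call, 5 gained one and 28 changed sign, none of them a value that had passed. Every call for senescence in WT and in KO cells held in all 12 alternatives. In the interaction, the 4 genes became 2 at an adjusted p under 0.01. KO control against WT control had 1 gene higher and 1 to 2 with single libraries left out. KO senescent against WT senescent had 7 lower, which became 2 at a threshold of 0.01, 4 with DESeq2, 3 with DESeq2 size factors and 2 to 5 with single libraries left out. Its count of 0 higher (edgeR) became 1, Tet3, with DESeq2 and with DESeq2 size factors (0.19, adjusted p = 0.0368 in both), and 0 to 1 with single libraries left out. The causes were not tested.

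Whether replicate numbers pair the libraries is not settled by these values. Same-numbered deviations correlated at 0.019, 0.098 and 0.15 in WT and at -0.17, 0.15 and -0.18 in KO cells. Of the 12 libraries, 7 matched their own number best. These were all WT libraries but WT control 1, and in KO cells only those of replicate 2. With a replicate block, the 7 genes lower in KO senescent cells became 4.

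Library totals without TMM raised the median of all genes by 0.17 in WT and 0.15 in KO cells on the log2 scale and turned 5093 higher and 4702 lower genes in WT cells into 7000 and 3213, and 4964 and 4983 in KO cells into 6703 and 3618. Under it, Kdm6b read 0.09 and Tet2 0.05 in WT cells, both still below the shift of 0.17. Differences near 0 also changed sign: Kdm6b in senescent cells (-0.04 with totals, 0.00 without a filter and with the replicate block, -0.06 to 0.06 without single libraries), and the Ezh2 interaction (0.03 with DESeq2 and with its size factors, -0.05 to 0.07 without single libraries). With single libraries left out, the control differences between genotypes ranged from -0.13 to 0.02 for Dnmt1, -0.06 to 0.03 for Dnmt3a, -0.11 to 0.07 for Uhrf1, -0.03 to 0.14 for Ezh1 and -0.10 to 0.02 for Ezh2, and the senescent difference of Ezh2 from -0.09 to 0.03. Dnmt3b and Tet1, the genes with the lowest counts, had the widest intervals, and the part of depth in that was not tested.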

Other observations

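Germline genes known to be kept silent by promoter DNA methylation stayed near the detection limit while Dnmt1 and Uhrf1 fell. Of 16 such genes, 15 were under 1 CPM in every library of every group, and the summed level of the 16 was 2.20 to 3.34 CPM in WT control, 4.07 to 4.63 in WT senescent, 2.36 to 3.64 in KO control and 3.31 to 3.74 CPM in KO senescent libraries. The higher WT senescent sums were carried by Brdt. Without it the other 15 genes summed to 0.895 to 1.49 CPM in WT control, 0.774 to 1.54 in WT senescent, 0.558 to 1.08 in KO control and 0.877 to 1.85 CPM in KO senescent libraries, which overlap. The 1 gene that could be tested, Brdt, a testis bromodomain gene, was at 1.59 ± 0.275 CPM in WT control, 3.19 ± 0.106 in WT senescent, 2.18 ± 0.378 in KO control and 2.14 ± 0.273 CPM in KO senescent cells (SD, n = 3). It rose by 1.01 on the log2 scale in WT cells (edgeR adjusted p = 0.000536), was at -0.03 in KO cells (adjusted p = 0.918) and had an interaction of -1.04 (adjusted p = 0.0208). DNA methylation was not measured in these libraries.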
